A study of Mus musculus with 6 samples.

Results

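Ighv11-2, Igkv14-126, Ighv12-3 and Igkv4-91 are immunoglobulin variable (V) segments that recur in the antigen receptors of B-1 cells. They were examined in RNA of sorted mouse progenitors together with Bhlhe41, Zbtb32 and Cd5, genes known for their part in B-1 cells. The 7 genes were taken by symbol from a table of 53677 genes. Both V segments that head their loci, Ighv11-2 and Igkv14-126, had been picked because they held the highest value of their locus in all 6 libraries, so that rank and the size of their shares are descriptions and carry no test. The other 5 genes were picked by name.

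The cells were short-term hematopoietic stem cells (ST-HSC), multipotent progenitors with limited self-renewal, sorted from C57BL/6J bone marrow by the surface phenotype Lin- ckit+ CD48+ CD150-. Of the 6 libraries, 3 came from wild-type (WT) mice, whose genotype label reads dnTCF4-/-, and 3 from dnTCF4 mice, labelled dnTCF4+/+. A dominant-negative TCF4 competes with the TCF and LEF proteins through which β-catenin turns on its target genes. The labels give neither the promoter and cell type in which it was expressed nor the age of the mice, and the series text speaks of 3 mice per genotype. Values are RPKM, reads scaled to the length of the gene and to the counted reads of the library. Counted reads numbered 61800000 to 67700000 per WT library and 57400000 to 110900000 per dnTCF4 library.

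B-1 cells are innate-like B lymphocytes, found mainly in the body cavities, that arise largely from fetal and neonatal progenitors and secrete much of the natural IgM of an unimmunised animal. Many of them bind phosphatidylcholine, a membrane lipid, through receptors of nearly fixed build that pair Ighv11-2 with Igkv14-126 or Ighv12-3 with Igkv4-91. An immunoglobulin gene is assembled by joining a V segment to further segments in a developing B cell, and the joined gene is transcribed strongly in B cells and most strongly in antibody-secreting plasma cells. Bone marrow is a known home of plasma cells, including those derived from B-1 cells.

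Genes of the sort gate had values that went with the label. Kit was at 35.5 to 97.1 RPKM, Cd48 at 813 to 1415, and Slamf1, which encodes CD150, at 0.744 to 1.18. Markers of B and T cells ranged widely. Pax5 was at 0 to 0.0466 RPKM, Ms4a1 (CD20) at 0.175 to 1.27 and Cd3e at 0.0663 to 0.502, whereas Cd79b, a chain of the B cell receptor complex, was at 90.7 to 125.3, Cd79a at 3.29 to 68.7, Cd72 at 29.1 to 56.0, the kinase Lck at 15.1 to 59.9 and Trbc1, a T cell receptor constant gene, at 2.84 to 24.1. Of 8 sort-gate and progenitor genes 7 were tested and 0 were called (limma, 0 at an unadjusted p under 0.05 and 0 by voom), against 0.300% of all genes tested. Cd48 (900.9 ± 90.6 against 1195 ± 209 RPKM) and Ptprc, which encodes CD45 (28.8 ± 2.28 against 36.9 ± 5.30), lay wholly higher in dnTCF4, as 15.4% of all genes tested did.

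The V segments lie in the heavy chain locus on chromosome 12 and the kappa light chain locus on chromosome 6 (GRCm38). The last 120 bases of each V-coding exon are shown beside the segment of the same locus with the closest sequence, because reads of similar segments can be assigned to the wrong one. Capitals mark bases that differ between the members of a pair, and sequences run 5′ to 3′ along the coding strand, taken from GENCODE M21 transcripts.
Ighv11-2, chr12:114048241-114048360, minus strand: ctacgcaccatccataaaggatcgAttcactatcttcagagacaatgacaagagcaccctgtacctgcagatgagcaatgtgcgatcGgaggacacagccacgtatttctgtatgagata
Ighv11-1, chr12:113981879-113981998, minus strand: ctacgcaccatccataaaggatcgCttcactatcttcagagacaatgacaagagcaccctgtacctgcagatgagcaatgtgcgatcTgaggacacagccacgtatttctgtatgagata
Igkv14-126, chr6:67896523-67896642, plus strand: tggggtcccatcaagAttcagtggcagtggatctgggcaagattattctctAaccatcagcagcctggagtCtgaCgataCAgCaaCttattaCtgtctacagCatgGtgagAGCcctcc
Igkv14-111, chr6:68256750-68256869, plus strand: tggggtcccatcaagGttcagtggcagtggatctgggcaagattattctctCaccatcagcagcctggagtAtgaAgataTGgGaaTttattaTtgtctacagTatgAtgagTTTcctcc
Igkv4-91, chr6:68768555-68768674, minus strand: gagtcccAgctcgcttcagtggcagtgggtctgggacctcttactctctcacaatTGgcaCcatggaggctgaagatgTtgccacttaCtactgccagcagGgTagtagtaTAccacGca
Igkv4-68, chr6:69304834-69304953, minus strand: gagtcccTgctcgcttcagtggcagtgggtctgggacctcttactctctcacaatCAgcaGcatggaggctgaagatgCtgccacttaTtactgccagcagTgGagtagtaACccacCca

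Ighv11-2 and Ighv11-1 differed at 2 of these 120 positions and were 98.7% identical over the 307 aligned bases of the exon. Of the 412 windows of 50 bases along the annotated Ighv11-2 transcript, 253 (61.4%) were found in no other V transcript. Igkv14-126 was 90.9% identical to Igkv14-111, Igkv4-91 was 86.8% identical to Igkv4-68, and Ighv12-3 was 78.2% identical to its nearest segment, Ighv3-1. All 309 windows of Igkv14-126 and all 304 of Ighv12-3 were unique, as were 293 of 309 (94.8%) for Igkv4-91. By sequence, Ighv11-2 and Ighv11-1 are thus the pair hardest to tell apart, and Ighv11-1 was listed at only 0.230 to 7.55 RPKM. How the authors' counting treated reads that match several segments is not given in the sources used here.

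Ighv11-2 (chromosome 12, 114048241 to 114048812) fell in dnTCF4. In order of replicate number, the WT libraries held 4559, 3812 and 4205 RPKM. The dnTCF4 libraries held 492.5, 360.5 and 692.7. The groups lay far apart, with the lowest WT library several times above the highest dnTCF4 library, and the mean fell from 4192 ± 373 to 515 ± 167 (SD, n = 3 each), 8.14-fold. On the log2 scale the difference was -3.07 (SE 0.25, with a 95% confidence interval of -3.66 to -2.48, limma adjusted p = 0.0081 over all genes tested). These values rest on 108549 to 133430 reads in WT and 14319 to 18432 in dnTCF4. In bulk RNA, fewer cells that carry a transcript and less of it per cell cannot be told apart.

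Igkv14-126 (chromosome 6, 67896172 to 67896642), the light chain partner, fell in the same way. WT libraries held 16896, 14419 and 15677 RPKM and dnTCF4 libraries 2044, 1340 and 3414. The order of the 3 dnTCF4 libraries was the same as for Ighv11-2, with replicate 3 highest and replicate 2 lowest, and the same held in WT, with replicate 1 highest and replicate 2 lowest. The mean fell from 15664 ± 1239 to 2266 ± 1055, 6.91-fold (log2 fold change -2.89, SE 0.32, 95% confidence interval -3.65 to -2.13, limma adjusted p = 0.034).

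For Ighv12-3 (chromosome 12, 114366521 to 114366954), the heavy chain of the other phosphatidylcholine receptor, WT libraries gave 87.5, 144.2 and 0.711 RPKM against 35.2, 26.3 and 53.4 for dnTCF4. WT replicate 3 stood apart from all other libraries, with 17 reads where the others held 783 to 3144. The groups overlapped because of that library, and the log2 fold change was 0.43 (SE 1.53, limma adjusted p = 0.91) although the mean was lower in dnTCF4 (38.3 ± 13.8 against 77.5 ± 72.3). Without WT replicate 3 the log2 fold change was -1.59 (limma adjusted p = 0.28).

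For Igkv4-91 (chromosome 6, 68768555 to 68769103), its light chain partner, WT libraries gave 1085, 159.5 and 335.7 RPKM against 91.2, 242.9 and 214.1 for dnTCF4. Those groups overlapped: WT replicate 2 lay below dnTCF4 replicates 2 and 3. On the log2 scale it differed by -1.20 (SE 0.70, with a 95% confidence interval of -2.83 to 0.43, limma adjusted p = 0.63).

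Of the 4 V segments, all of which were abundant enough to test (averaging 1 RPKM or more), 2 were called lower in dnTCF4, and those 2 also had groups that did not overlap. Across all 11326 genes tested, 0.256% were called lower, 0.0441% higher and 0.300% in either direction, and 2.26% had dnTCF4 values wholly below the WT values. The calls of both segments were lost when WT replicate 1 was left out (adjusted p = 0.052 for Ighv11-2 and 0.13 for Igkv14-126), although the log2 fold changes stayed at -3.01 and -2.83. The call of Igkv14-126 was also lost without WT replicate 3 (0.073) or dnTCF4 replicate 1 (0.13), and both were lost when genes of low value were kept in the fit (0.14 and 0.22).

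**Figure D1:**
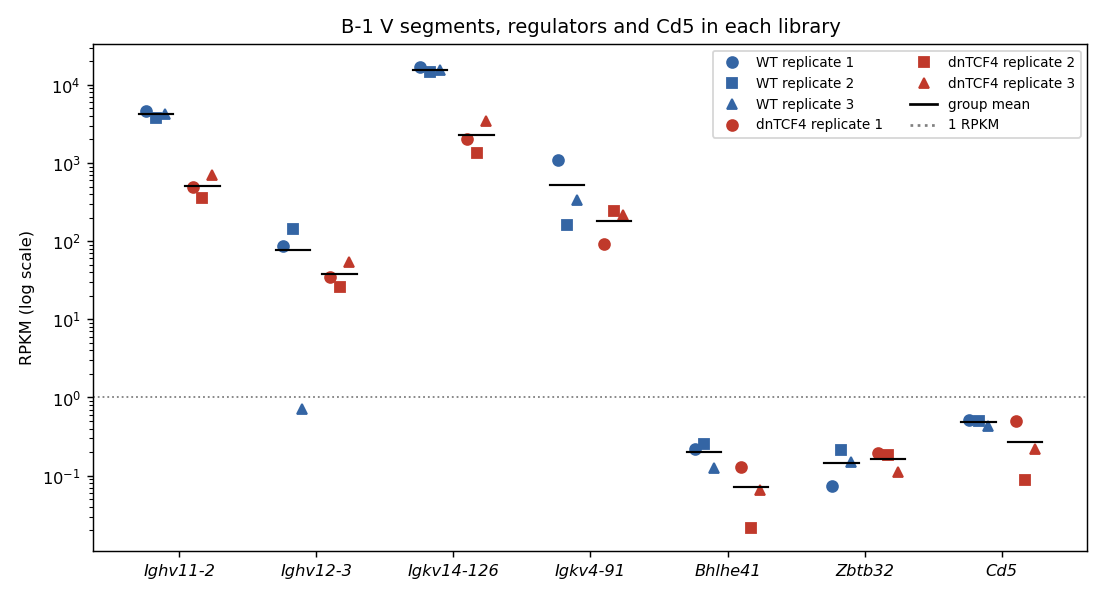
RPKM (log scale) of the 7 genes in each of the 6 libraries. Symbols mark the replicate number, colours the genotype, black lines the group means and the dotted line 1 RPKM. Ighv11-2 and Igkv14-126 have WT values above all dnTCF4 values, while the other 5 genes overlap between genotypes, and Bhlhe41, Zbtb32 and Cd5 lie below 1 RPKM throughout.

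Set against their own loci, the leading segments held similar shares in both genotypes. Ighv11-2 took 10.9%, 21.1% and 20.4% of the summed RPKM of the 183 Ighv rows in WT and 11.9%, 18.9% and 21.6% in dnTCF4, which gives 17.5% ± 5.70 and 17.5% ± 4.98. Igkv14-126 took 23.3%, 33.1% and 38.7% of the 160 Igkv rows in WT and 22.6%, 33.2% and 36.2% in dnTCF4 (31.7% ± 7.79 and 30.7% ± 7.16). Same-numbered libraries of both genotypes thus held shares within 2.45 percentage points of each other, while replicate 1 held the lowest share of both segments in each genotype. Dntt, the enzyme that adds bases at immunoglobulin joints in early lymphoid cells, was also highest in replicate 1 of each genotype. It was at 642.7 RPKM against 167.8 and 190.2 in WT, and at 354.2 against 86.6 and 91.1 in dnTCF4. Other lymphoid genes, such as Lck, Trbc1, Rag2 and Cd79a, were likewise highest in replicate 1 of each genotype, whereas Cd79b was not. The part of these genes in the lower shares was not tested.

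Each locus as a whole was lower by about as much as its leading segment. Summed Ighv RPKM was 26769 ± 12994 in WT and 3081 ± 1112 in dnTCF4, 8.69-fold lower, and 8.80-fold lower with Ighv11-2 left out. Summed Igkv RPKM was 52189 ± 17685 and 7496 ± 3008, 6.96-fold lower, and 6.98-fold lower with Igkv14-126 left out. In both loci all dnTCF4 sums lay below all WT sums. More Igkv rows were listed at 0 in each dnTCF4 library (80, 94 and 91 of 160) than in each WT library (58, 67 and 64), while for Ighv the numbers overlapped (64, 81 and 80 of 183 against 45, 66 and 58).

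The other pair had higher mean shares in dnTCF4, 1.30% ± 0.412 against 0.338% ± 0.413 for Ighv12-3 and 3.10% ± 2.61 against 0.897% ± 0.568 for Igkv4-91. Ighv12-3 was 0.210%, 0.800% and 0.00346% of Ighv RPKM in WT and 0.853%, 1.37% and 1.67% in dnTCF4. All 3 dnTCF4 shares lay above the 3 WT shares, but narrowly, with 0.853% in dnTCF4 replicate 1 against 0.800% in WT replicate 2. The two-sided exact permutation test gave p = 0.1, its lowest possible value with 3 against 3. How many other Ighv rows had shares without overlap is not given here. Ighv12-3 ranked 65, 25 and 92 among Ighv rows in WT and 29, 18 and 12 in dnTCF4. Igkv4-91 was 1.50%, 0.367% and 0.828% of Igkv RPKM in WT and 1.01%, 6.03% and 2.27% in dnTCF4, so its groups overlapped (exact two-sided permutation p = 0.2). Without dnTCF4 replicate 2, its difference in mean share shrank from 2.21 to 0.744 percentage points.

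**Figure D2:**
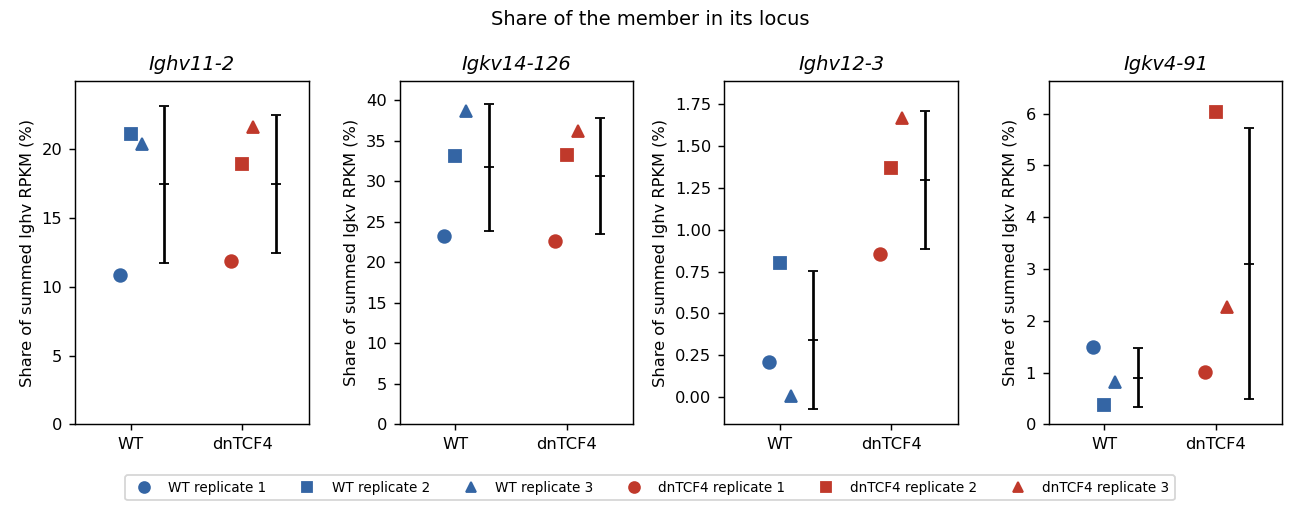
Share (%) of each V segment in the summed RPKM of its locus, Ighv or Igkv, in each library, with the mean and SD of the 3 libraries of a genotype as bars. Shares of Ighv11-2 (10.9% to 21.6%) and Igkv14-126 (22.6% to 38.7%) interleave between genotypes and are lowest in replicate 1 of each genotype. The share of Ighv12-3 lies higher in all 3 dnTCF4 libraries, narrowly so for dnTCF4 replicate 1 (0.853% against 0.800% in WT replicate 2).

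The shares of the leading pair varied less between libraries than those of other well used segments. Of the 22 Ighv rows with a mean share of at least 1%, Ighv11-2 had a coefficient of variation over the 6 libraries of 27.4%, against 27.4% to 201% (median 87.6%) in the other 21. Of the 21 such Igkv rows, Igkv14-126 stood at 21.5%, against 29.2% to 216% (median 82.7%) in the other 20. No other row lay below either, and Ighv3-6, at a mean share of 2.76%, matched Ighv11-2 to the precision given. These figures describe segments chosen for high rank in every library, so they carry no test.

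The row next in line differed between libraries. In Ighv it was Ighv1-26 (7.73%), Ighv5-16 (16.5%) and Ighv7-1 (10.9%) in WT replicates 1, 2 and 3, and Ighv9-3 (9.96%), Ighv5-9 (12.3%) and Ighv4-1 (17.7%) in dnTCF4 replicates 1, 2 and 3. Ighv5-16, which held 16.5% in WT replicate 2, was at 0.00124% in dnTCF4 replicate 2, and Ighv4-1, which held 17.7% in dnTCF4 replicate 3, was at 0.170% to 1.16% in the other 5 libraries. In Igkv the row next in line recurred in part: it was Igkv6-15 in WT replicate 1 (7.75%) and dnTCF4 replicate 3 (19.2%), Igkv19-93 in WT replicate 2 (12.6%) and dnTCF4 replicate 1 (18.2%), Igkv15-103 in WT replicate 3 (5.33%) and Igkv14-111 in dnTCF4 replicate 2 (9.61%). By mean share the Ighv rows ranked 2 and 3 were Ighv1-26 (4.95%) and Ighv7-1 (4.67%). In Igkv they were Igkv6-15 (7.45%) and Igkv19-93 (7.38%), of which the latter ranged from 0.00357% in dnTCF4 replicate 3 to 18.2% in dnTCF4 replicate 1. The fewest rows that together held 50% of a locus numbered 5 to 9 for Ighv and 4 to 8 for Igkv in WT, and 3 to 9 and 2 to 3 in dnTCF4.

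**Figure D3:**
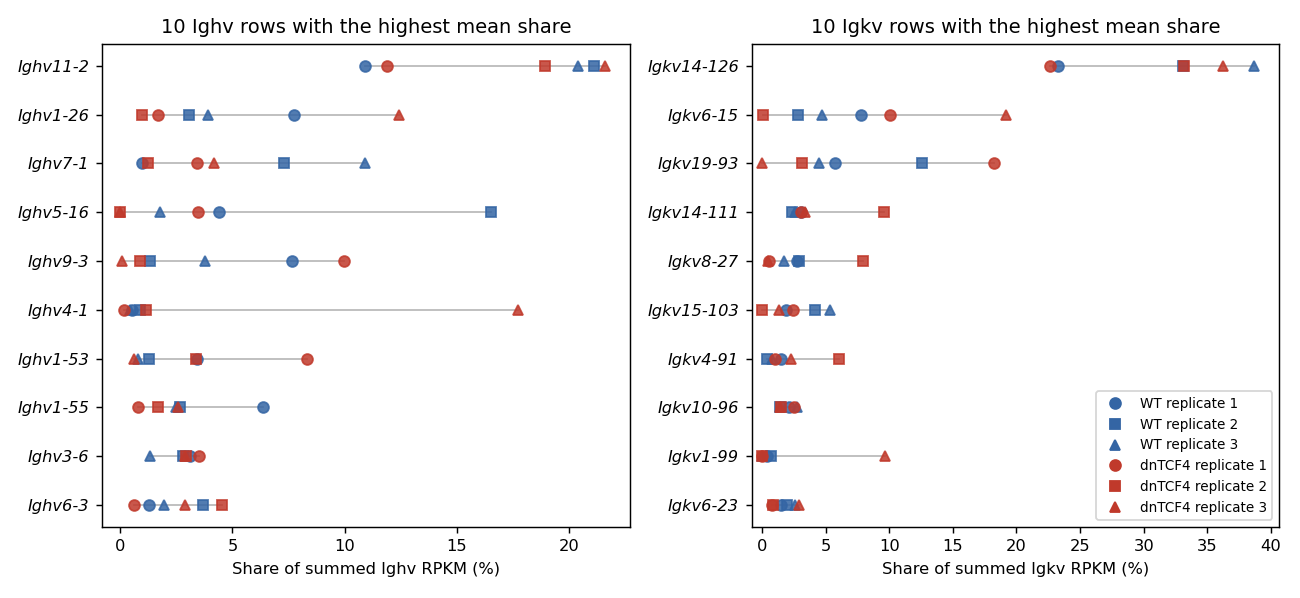
Share (%) of the summed locus RPKM for the 10 Ighv rows (left) and 10 Igkv rows (right) with the highest mean share, 1 symbol per library. Ighv11-2 and Igkv14-126, the top row of each panel, hold the highest share in each of the 6 libraries, while segments such as Ighv5-16, Ighv4-1 and Igkv19-93 are high in some libraries and near 0 in others.

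The heavy and light chains of the leading pair kept nearly the same proportion in WT and a more variable one in dnTCF4. The ratio of Ighv11-2 to Igkv14-126 RPKM was 0.270, 0.264 and 0.268 in WT and 0.241, 0.269 and 0.203 in dnTCF4. The 3 WT libraries agreed to an SD of 0.00278, and dnTCF4 replicates 1 and 3 lay below them. RPKM depends on the gene length used: the Ighv11-2 transcript holds 108 untranslated bases of 461, against 5 of 358 for Igkv14-126 and 0 for Ighv12-3 and Igkv4-91. Counted in reads, Ighv11-2 made up 20.9% ± 6.61 of Ighv in WT and 20.7% ± 5.55 in dnTCF4, above the 17.5% by RPKM, and still ranked first in all 6 libraries. The second pair showed no such proportion: Ighv12-3 over Igkv4-91 ran from 0.00212 in WT replicate 3 to 0.904 in WT replicate 2. Between heavy chains, Ighv11-2 was 52.1, 26.4 and 5912 times Ighv12-3 in WT and 14.0, 13.7 and 13.0 times in dnTCF4, so the dnTCF4 libraries were close to each other and all below WT.

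Constant genes, which encode the part of an antibody that sets its class, give the total against which V segments are read. Of 12 constant genes 11 were tested, 10 had lower values in dnTCF4 and 2 were called, Ighm (IgM) and Igkc (kappa), against 0.256% of all genes called lower. The median log2 fold change of the 11 was -2.96, against 0.14 over all genes tested. Ighv11-2 RPKM was 0.337, 0.345 and 0.450 times that of Ighm in WT and 0.213, 0.352 and 0.289 times in dnTCF4. Igkv14-126 was 0.228, 0.353 and 0.406 times Igkc in WT and 0.256, 0.368 and 0.403 times in dnTCF4, again with same-numbered libraries side by side. Ighm was at 13543, 11061 and 9352 RPKM in WT and 2310, 1024 and 2396 in dnTCF4 (limma adjusted p = 0.042), and Igkc at 74124, 40883 and 38609 and 7979, 3645 and 8466 (limma adjusted p = 0.042). The IgG genes Ighg1, Ighg2b and Ighg2c had log2 fold changes of -5.90, -5.69 and -6.26 with no overlap between groups (2.26% of all genes lay wholly lower), yet did not pass the test (limma adjusted p = 0.14, 0.10 and 0.11). Of these, Ighg2b averaged 404.6 ± 164 RPKM in WT and 10.9 ± 9.13 in dnTCF4. The lambda light chain genes Iglc1, Iglc2 and Iglc3 had log2 fold changes of -4.02, -1.61 and -1.40 (limma adjusted p = 0.23, 0.26 and 0.66), with Iglc1 at 16696 RPKM in WT replicate 1 and 81.7 to 1506 elsewhere. Ighe (IgE) was below the filter at 0.740 ± 0.544 and 0.318 ± 0.366 RPKM. Igha (IgA), a class that B-1 cells also make, was at 8035, 1048 and 2214 RPKM in WT and 460.3, 284.7 and 273.2 in dnTCF4 (limma adjusted p = 0.18). Ighg3, at 59.9, 5.81 and 85.1 RPKM and 29.3, 6.61 and 0.389, overlapped between genotypes (limma adjusted p = 0.63). Ighd, the IgD gene of mature naive B cells, was low in both, at 4.34 ± 2.50 and 4.69 ± 2.61.

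Relatives of the 4 segments were few in number or low, except in the Igkv14 and Igkv4 families. Ighv11-2 made up 98.9% to 99.9% of its family of 2 rows, and Ighv12-3 was the only row of 3 in its family above 0. Of 8 Igkv14 rows, Igkv14-126 held 77.6% to 93.2%. Igkv14-111, the nearest in sequence, had WT values of 2215, 1014 and 1051 RPKM against dnTCF4 values of 278.9, 387.4 and 318.7 (log2 fold change -2.03, SE 0.32, limma adjusted p = 0.084). Igkv14-100 and Igkv14-130 averaged 150.5 and 160.6 RPKM in WT, with Igkv14-130 listed at 0 in WT replicate 2 and in all dnTCF4 libraries, and the 4 pseudogenes of the family were at 0 except for 0.0936 RPKM of Igkv14-126-1 in WT replicate 2. Within the 33 Igkv4 rows, Igkv4-91 ranked 3, 6 and 3 in WT and 5, 1 and 1 in dnTCF4. Igkv4-59, Igkv4-55 and Igkv4-57, the most abundant other rows of that family, averaged 806.2, 480.5 and 572.0 RPKM among WT libraries against 118.2, 190.1 and 47.9 among dnTCF4 libraries. None was called (limma adjusted p = 0.42, 0.75 and 0.42), and Igkv4-59 was called with the replicate block (0.031). That block treats same-numbered libraries as pairs, a pairing inferred from these same data, so calls gained with it are weaker evidence.

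Genes with the most similar course over the 6 libraries were sought among all genes tested, by Pearson's r of log2(RPKM + 1). The closest to Ighv11-2 was its partner Igkv14-126, and the reverse also held. Next came Igkv3-4 and Gm11830 for Ighv11-2 (r = 0.994 and 0.991), and Gm11830 and Gt(ROSA)26Sor for Igkv14-126 (0.996 and 0.985). Igkv3-4, a kappa V segment, was called lower: its WT libraries held 174.4, 163.2 and 178.7 RPKM, and its dnTCF4 libraries 0, 0.0501 and 1.06 (limma adjusted p = 0.0002). Gm11830 averaged 4.73 ± 0.832 and 0.680 ± 0.518 RPKM (limma adjusted p = 0.053, or 0.042 with the replicate block). Gt(ROSA)26Sor, the noncoding RNA of the Rosa26 locus that is widely used for transgenes, lay at 41.9 ± 0.764 RPKM for WT and 18.0 ± 6.26 for dnTCF4 (log2 fold change -1.23, limma adjusted p = 0.16). The labels used here do not give the site of the dnTCF4 allele. For Ighv12-3 the nearest were AW209491 (r = 0.941), Gm3851 (0.855) and a further kappa V segment (0.843), and for Igkv4-91 they were C230085N15Rik (0.953), Igkv3-5 (0.952) and Gm24366 (0.949). Between the 4 segments, r was 1.00 for Ighv11-2 with Igkv14-126, 0.57 and 0.55 for Igkv4-91 with these 2, and -0.04 for Ighv12-3 with Igkv4-91. With 6 libraries in 2 groups, the values for Ighv11-2 and Igkv14-126 largely follow the difference between groups. The genes nearest to Ighv12-3 and Igkv4-91 overlapped between genotypes, except Igkv3-5, and AW209491 had a log2 fold change of 0.01. All these values of r are descriptions.

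Transcripts of the B-1 regulators were scarce in both genotypes. Bhlhe41 (chromosome 6, 145858243 to 145865558), a transcriptional repressor that B-1a cells need for their maintenance, had WT values of 0.218, 0.253 and 0.125 RPKM against dnTCF4 values of 0.130, 0.0215 and 0.0648. From 57 to 105 reads stood behind the WT values and 16 to 55 behind the dnTCF4 values. WT replicate 3 lay just below dnTCF4 replicate 1, so the groups overlapped (exact two-sided permutation p = 0.2). Between same-numbered libraries, whose pairing the labels do not name, dnTCF4 was 1.68-fold, 11.8-fold and 1.93-fold lower in pairs 1, 2 and 3. An unstranded library cannot separate its reads from those of Gm43909, annotated on the opposite strand within the same span.

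Zbtb32 (chromosome 7, 30589681 to 30598909), a zinc finger repressor of activated and B-1 lymphocytes, was at 0.0735, 0.213 and 0.150 RPKM in WT and 0.195, 0.184 and 0.111 in dnTCF4, from 11 to 48 reads per library. Its values overlapped fully (exact two-sided permutation p = 0.7). Cd5 (chromosome 19, 10717116 to 10739002), a surface protein that dampens antigen receptor signals and marks B-1a and T cells, was at 0.518, 0.493 and 0.435 RPKM in WT and 0.506, 0.0872 and 0.219 in dnTCF4. Replicate 1 of both genotypes was nearly equal, while dnTCF4 replicates 2 and 3 lay below all WT libraries (exact two-sided permutation p = 0.3). Between same-numbered libraries, a pairing inferred from these data, Cd5 was nearly equal in pair 1 (1.02-fold lower in dnTCF4). In pairs 2 and 3 it was 5.66-fold and 1.99-fold lower.

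None of these 3 genes reached a mean of 1 RPKM. In a limma fit without a filter on low values, their log2 fold changes were -0.16 for Bhlhe41 (adjusted p = 0.60, unadjusted p = 0.03), 0.02 for Zbtb32 (0.90) and -0.23 for Cd5 (0.73). With the replicate block as well, the limma adjusted p was 0.50, 0.88 and 0.55. That fit called 0.0196% of 30670 genes. Values of Bhlhe41 and Zbtb32 lay above the limit set by 3 reads, at most 0.00778 and 0.0222 RPKM, in all 6 libraries. No such limit is given for Cd5, whose values were not whole reads at the GENCODE M21 length.

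Of 16 genes associated with B-1 cells, which include the 3 above, 8 were tested and 0 were called (limma, 3 at an unadjusted p under 0.05, 0 by voom), against 0.300% of all genes. Of the 8, 6 had higher and 2 lower values in dnTCF4, or 5 and 3 after median ratio scaling, with a median log2 fold change of 0.25 (0.06 after scaling) against 0.14 (-0.04) over all genes. Il5ra, a chain of the interleukin-5 receptor that supports B-1 cells, had WT values of 3.11, 1.18 and 1.25 RPKM against dnTCF4 values of 0.417, 0.141 and 0.146. All its dnTCF4 values lay below WT, as in 2.26% of all genes tested, with a log2 fold change of -1.15 (SE 0.26, limma adjusted p = 0.19). Il5ra averaged 0.235 RPKM in dnTCF4 and entered the test only through its WT values. Cd9, a tetraspanin present on B-1 cells and on many progenitors, averaged 106.6 ± 14.6 RPKM in WT against 182.9 ± 38.8 (log2 fold change 0.76, limma adjusted p = 0.30). Plscr1, a membrane scramblase, was at 42.2 ± 0.819 and 58.0 ± 7.22 (0.44, 0.48). Both lay wholly above WT, as 15.4% of all tested genes did. Spn, which encodes CD43, was at 28.9 ± 5.88 and 33.6 ± 2.34 and overlapped. Several of these genes are also expressed by progenitors, so they do not mark B-1 cells alone.

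Plasma cell genes were lower in dnTCF4 beside the V segments without passing the test. Of 16 markers 14 were tested, all 14 had lower values in dnTCF4, also after median ratio scaling, and 10 had groups that did not overlap, against 2.26% of all genes wholly lower. None was called (limma, 10 at an unadjusted p under 0.05, 0 by voom), against 0.300% of all genes. With the replicate block, whose pairing was inferred from these same data, 2 were called, Mzb1 (limma adjusted p = 0.031) and Pou2af1 (0.020). The median log2 fold change was -0.99. Irf4, Derl3 and Eaf2 averaged below 1 RPKM in dnTCF4 and entered the test through their WT values, which favours lower genes in these counts. Of the 2 markers not tested, Ell2 had a higher mean in dnTCF4 (0.640 ± 0.149 and 0.774 ± 0.195) and overlapped. The other, Prdm1, lay wholly lower (1.06 ± 0.0611 and 0.156 ± 0.0148). Jchain, the joining chain of secreted IgM and IgA, was at 7568, 2592 and 2482 RPKM in WT and 611.5, 284.1 and 614.7 in dnTCF4 (log2 fold change -2.94, SE 0.50, limma adjusted p = 0.10). Tnfrsf17, the BCMA receptor of plasma cells, was at 19.2 ± 7.58 and 2.87 ± 2.21 (-2.48, 0.11), and Mzb1, an endoplasmic reticulum protein of antibody secretion, at 135.4 ± 68.8 and 24.8 ± 14.7 (-2.45, 0.14). Irf4, a transcription factor of plasma cells, was at 1.72 ± 0.239 and 0.449 ± 0.0847 (-0.91, 0.079). Among secretory pathway genes of the list, Sec11c (64.6 ± 19.7 and 54.5 ± 9.87) and Fkbp11 (61.8 ± 11.9 and 44.0 ± 11.9) overlapped between genotypes, whereas Txndc5 (17.2 ± 1.76 and 10.6 ± 1.75) and Derl3 (2.08 ± 0.854 and 0.431 ± 0.0805) lay wholly lower in dnTCF4 (limma adjusted p = 0.31 and 0.14). Summed over the list, levels were 2801 to 7987 RPKM in WT and 433.1 to 805.6 in dnTCF4, of which Jchain alone made up most. The part of such cells in the levels of the V segments was not tested.

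Markers of the B lineage were split in direction in the main fit and mostly lower in dnTCF4 after scaling. Of 20 markers 11 were tested and 0 were called (limma, 2 at an unadjusted p under 0.05, 0 by voom), against 0.300% of all genes. Of the 11, 7 had lower values and 4 higher, or 10 and 1 after median ratio scaling. The median log2 fold change was -0.06 against 0.14 over all genes, or -0.19 against -0.04 after scaling. Cd79a, a signalling chain of the B cell receptor, was at 68.7, 26.1 and 26.5 RPKM in WT and 20.3, 3.29 and 8.41 in dnTCF4, with no overlap (log2 fold change -1.97, limma adjusted p = 0.36). Its partner chain Cd79b was at 103.2 ± 17.8 and 109.3 ± 15.6 RPKM, and Cd72, a B cell inhibitory receptor, at 36.1 ± 10.9 and 41.7 ± 12.4. Summed over the list, levels were 337.3 to 931.2 RPKM in WT and 236.5 to 582.2 in dnTCF4, mostly from Dntt and Cd79b.

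**Figure D4:**
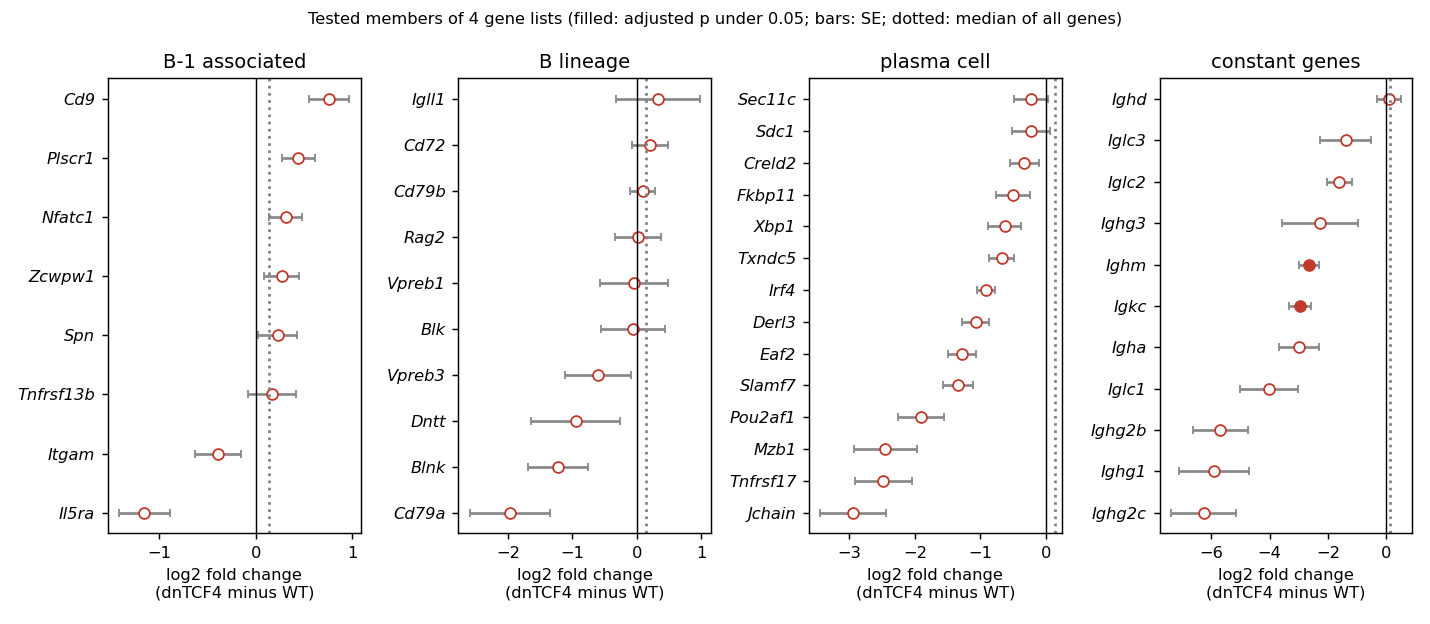
Log2 fold change (dnTCF4 minus WT, log2(RPKM + 1) scale) with SE for the tested members of the B-1 associated, B lineage (10 of 11 drawn), plasma cell and constant gene lists. Filled points passed the limma test at an adjusted p under 0.05 and the dotted line is the median of all genes, 0.14. All 14 plasma cell genes and 10 of 11 constant genes lie below 0, whereas B-1 associated genes lie on both sides.

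Because Cd5, Zbtb32 and Bhlhe41 are also transcribed outside B cells, markers of T cells, NK cells, macrophages and neutrophils were read beside them. Of 15 T cell markers 4 were tested, 1 with a higher and 3 with a lower value, and Lck, Trbc1 and Trbc2, the highest, overlapped between genotypes (Lck 33.5 ± 22.8 RPKM against 27.2 ± 20.1). Cd28 and Cd6, which were not tested, lay lower in all dnTCF4 libraries (1.32 ± 0.301 against 0.206 ± 0.0815 RPKM, and 0.434 ± 0.0649 against 0.0994 ± 0.121). Among all genes tested, 2.26% lay wholly lower. The rest of the 11 untested markers overlapped between genotypes, with higher means in dnTCF4 for Cd3d, Cd4, Cd8a and Cd8b1 and lower means for the others. The summed T cell list was at 35.1 to 106.4 RPKM in WT and 24.0 to 95.7 in dnTCF4. Of 10 NK cell markers 5 were tested, with 4 higher (summed list 1008 to 1239 RPKM and 779.5 to 1185, mostly Nkg7). Of 12 macrophage markers 7 were tested, with 5 higher (83.8 to 96.0 and 116.5 to 129.6, mostly Cd68). Of 11 neutrophil markers 10 were tested and 9 had higher values (623.3 to 3133 and 3087 to 7604 RPKM). Median log2 fold changes of the T cell, NK, macrophage and neutrophil lists were -0.18, 0.26, 0.5 and 1.85, against 0.14 over all genes. After median ratio scaling, 0 of 4, 4 of 5, 4 of 6 and 9 of 10 genes of these lists had higher values. The highest of these lists were Nkg7, Gzmb and Klrd1 (NK), Cd68, Cd163 and Csf1r (macrophage) and S100a8, S100a9 and Ngp (neutrophil), of which Cd68 (67.3 ± 3.09 against 96.3 ± 12.5 RPKM) and S100a8 (507.3 ± 450 against 1803 ± 999) lay wholly higher in dnTCF4, as 15.4% of all genes did. In these 4 lists 0 genes were called (limma, with 0, 1, 4 and 7 at an unadjusted p under 0.05 and 0 by voom), against 0.300% of all genes. Their part in the values of the 3 genes was not tested.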

How the data were processed

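Poly(A) RNA of 3 WT and 3 dnTCF4 ST-HSC samples, amplified with a SMART-Seq kit that does not mark strand, was compared. The authors deposited 1 table of RPKM values, with a column per library, mapped to samples by the column names in the labels. Per the submitters' processing notes, the builds were mm10 and GRCm38, and the tools included edgeR, DESeq2, featureCounts and STAR, while the sources used here do not state their roles, the annotation or how multi-mapping reads were handled. Of 53677 symbols, 49627 matched 1 gene of GENCODE M21 (GRCm38). RPKM times union exon length fell on whole reads, within 0.02 of a read, for 94.4% to 95.2% of values up to 1000 reads, which gave the depths. Read limits cover counting error only, since amplified reads are not independent molecules.

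All genes averaging 1 RPKM or more entered the test. It used log2(RPKM + 1) values and limma 3.58.1, run in R 4.3.3 (mean-variance trend, two-sided, Benjamini-Hochberg over all genes tested, called at 0.05). Fold changes on this scale understate those of low genes. The script was tested on simulated data. Single values were compared by exact permutation, where 3 against 3 cannot go below 0.1. P-values measure the spread between these libraries. Shares are percentages of the summed RPKM of rows starting with Ighv or Igkv. The sample titles number the libraries but name no pairing. Same-numbered libraries were taken as pairs because their deviations from the group means correlated at 0.17, 0.35 and 0.30, all above 0.1. Other combinations gave -0.33 to 0.09. The pairing is thus inferred from these same data, and the main fit does not use it. The 7 genes, the lists and the rule for named genes were chosen with earlier results of these data known. The rule took the 7 genes, their V families (the 3 highest other rows for Igkv4), the rows ranked 2 and 3 by mean share, constant genes, the highest members of each list and the 3 genes most alike to each tested member. Genes named beside these (Il5ra, Irf4, Cd28, Cd6 and segments high in 1 library, among others) were chosen after their values were seen. Values of 1 B lineage gene are not reported here, though its list's counts and sums include it. Sequences were aligned with Biopython 1.88, and matplotlib 3.10.9 drew the plots from tables that pandas 2.3.3 and numpy 2.4.6 made under Python 3.11.15. Alternatives were another pseudocount, other filters, scaling, library weights, the replicate block, voom on recovered reads and leaving out libraries.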

Additional observations from a re-analysis of the deposited data

How the results depend on the processing

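Both falls, of Ighv11-2 and Igkv14-126, kept their direction under every alternative run. The same 2 of 4 V segments were called with a pseudocount of 0.1, at a mean of at least 5 RPKM, after median ratio scaling, with other immunoglobulin genes left out, with library weights, by voom and with the replicate block (2 called, adjusted p = 0.018 and 0.032). Without a filter 0 were called, as with replicates 2 and 3 only, an alternative chosen after the data were seen. Leaving out 1 library gave 0 to 2. Of all genes, 34 were called as reported, 49 with the replicate block, 86 with library weights, 14 by voom, 24 at a mean of at least 5 RPKM, 2 with other immunoglobulin genes left out, 6 without a filter, 10 with replicates 2 and 3 only and 7 to 34 without 1 library. The log2 fold change of Ighv12-3, 0.43 as reported, turned to -0.08 with library weights and to -1.59 without WT replicate 3, the library with 17 reads, and was -1.59 to 1.62 over the fits without 1 library. Under the pairing, the share of Ighv12-3 was 0.643, 0.575 and 1.66 percentage points higher in dnTCF4 in pairs 1, 2 and 3 (exact sign-flip p = 0.25, the smallest 3 pairs allow), and that of Igkv4-91 differed by -0.487, 5.66 and 1.44. Without 1 library, differences in share ranged from -3.33 to 2.72 percentage points for Ighv11-2 and from -5.22 to 3.03 for Igkv14-126, and the 2.21 points of Igkv4-91 became 0.744 without dnTCF4 replicate 2, 3.55 with replicates 2 and 3 only and 3.35 without the highest other row. The median of all genes was 0.14 as reported and -0.04 after median ratio scaling. Depth limits Zbtb32, with 11 to 48 reads, Bhlhe41, with 16 to 105, and Ighv12-3 in WT replicate 3, while the leading segments had at least 14319 reads.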
